A study of Saccharomyces cerevisiae with 18 samples.

Results

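The transcriptomes of YJM975 and RM11 grown in glycerol were compared over 6292 genes. These are the genes, among the 6612 transcripts in the table, whose mean TPM over the 6 glycerol libraries reached 1 or more, and the other 320 transcripts were not tested. TPM is an abundance scaled by transcript length and to a total of 1000000 in each library, so the depth behind a value is unknown and counting error cannot be stated. Both strains of the budding yeast Saccharomyces cerevisiae were homozygous diploids, RM11a/α and YJM975a/α, and the labels list no other allele or agent. RM11 is a vineyard strain background and YJM975 a clinical one. Each group consisted of 3 replicate liquid cultures of 5 mL in S-CSM medium with 2% glycerol, taken while growing exponentially (optical density, 0.5 to 1.0), with polyadenylated RNA sequenced from whole cells. The series grew the same strains in 2% ethanol and in medium labelled 2% glucose, also in triplicate. The labels name 1 diploid per strain, so each comparison is one of whole genotypes.

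Glycerol cannot be fermented by this yeast. It enters through a proton symporter, is phosphorylated by a glycerol kinase and oxidised by a mitochondrial glycerol-3-phosphate dehydrogenase, and growth on it requires respiration. Growing cells devote much of their transcription to ribosomes, and slow or starved cells repress those genes and express stress and reserve carbohydrate genes in their place. In a/α diploids, starvation together with a non-fermentable carbon source permits the master regulator Ime1 to start meiosis, after which the kinase Ime2 and the activator Ndt80 lead to spore formation.

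Most of 11 haploid-specific and mating genes chosen as a check lay below the median gene in glycerol. The median was 33.2 to 33.6 TPM in RM11 and 19.9 to 21.0 TPM in YJM975. By definition as many genes lie below it as above, so this alone does not make a gene low. Of the 11, 8 lay below it in every library. Among them the pheromone receptor gene STE2 was at 8.86 to 9.02 TPM in RM11 and 10.9 to 11.3 TPM in YJM975. The other receptor gene, STE3, was at 2.94 to 3.91 TPM in RM11 and 1.94 to 2.01 TPM in YJM975. FUS3 was at 5.98 to 6.69 TPM in RM11 and 12.5 to 14.2 TPM in YJM975. The exceptions were the a-factor genes MFA1, at 381.5 to 407 TPM in RM11 and 309 to 337 TPM in YJM975, and MFA2, at 71.6 to 99.6 and 88.7 to 100.2 TPM, and the meiosis repressor gene RME1, at 34.8 to 39.6 and 17.7 to 19.1 TPM. The part of these transcripts in the results below was not tested.

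Most genes differed between the strains in glycerol, and most of those were lower in YJM975. Of the 6292 genes, 5444 (86.5%) passed a Benjamini-Hochberg adjusted p threshold of 0.05 with limma on log2(TPM + 1), 1017 (16.2%) higher and 4427 (70.4%) lower in YJM975. At least 2-fold differences were held by 193 higher genes (3.07%) and 1990 lower ones (31.6%). The median gene had a log2 difference (YJM975 minus RM11) of -0.60, the quartiles were -1.18 and -0.08, and the median standard error was 0.072. The 3 libraries of one strain did not overlap the 3 of the other for 5458 genes (86.7%). Replicate libraries correlated with r of 0.9950 to 0.9966 across genes, which are not independent replicates.

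TPM is relative to a fixed total, so an increase in abundant transcripts lowers the TPM of the rest. The 50 most abundant genes held 37.5 to 38.4% of TPM in the RM11 libraries and 49.4 to 50.8% in the YJM975 libraries, while the median TPM of the genes tested was 33.2 to 33.6 in RM11 and 19.9 to 21.0 in YJM975. With the median of every library set equal (median centring), 2888 genes (45.9%) were higher and 2381 (37.8%) lower, and 761 and 792 were so by at least 2-fold. Counts of gene lists are therefore given for TPM as deposited and again with median centring, to be read against the 16.2% higher and 70.4% lower of all genes, or 45.9% and 37.8% with median centring. List medians stand beside the -0.60 of the median gene. Log2 differences of TPM + 1, given ± SE, understate the change of genes with low levels.

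**Figure D1:**
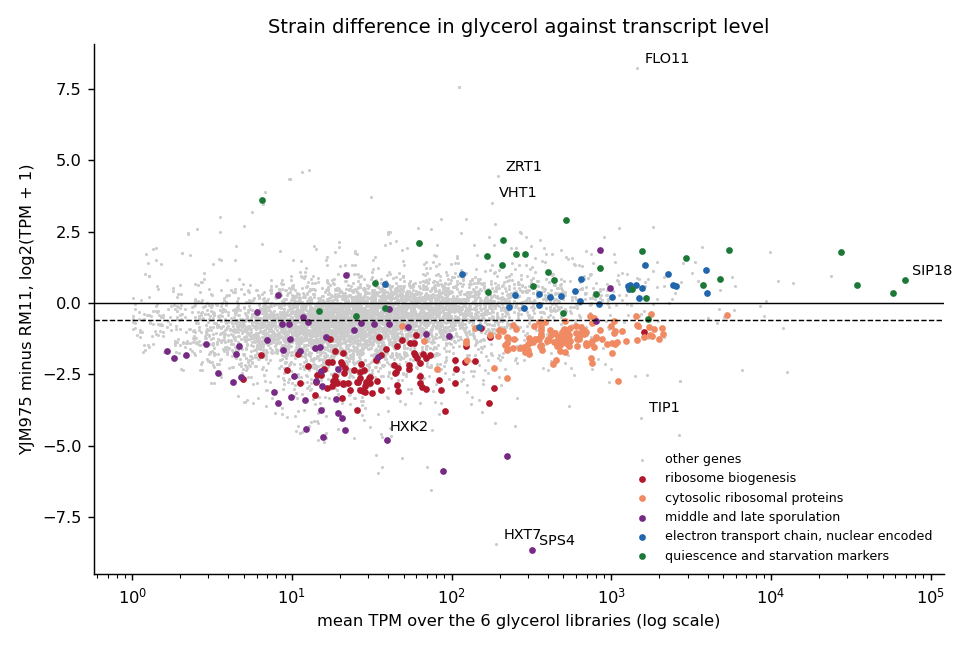
Each point is 1 of 6292 genes, with the mean TPM of the 6 glycerol libraries on the x axis (log scale) and the log2 difference of TPM + 1, YJM975 minus RM11, on the y axis; the dashed line is the median gene at -0.60. Ribosome biogenesis and sporulation genes lie below that line for the most part, quiescence and electron transport genes above it.

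The largest differences were those of a flocculin, sporulation genes, short open reading frames and a hexose transporter whose near-identical copy ran the other way. They were ranked among called genes whose groups of libraries did not overlap, so their lack of overlap follows from that choice. FLO11, the cell-surface flocculin of biofilms and filaments, stood at 8.13, 8.03 and 10.1 TPM in RM11 and 3004, 2878 and 2788 TPM in YJM975. Its lowest YJM975 library was far above its highest RM11 library, with a log2 difference of 8.22 ± 0.09 (limma adjusted p = 4.56e-20). YHR054W-A and YHR052W-A, short frames whose values were the same throughout, were at 0, 0.687 and 0 TPM in RM11 and 227, 233 and 205 TPM in YJM975. The frames YJL225W-A and YIL177W-A, also with identical values, were listed at 0 in the 3 RM11 libraries and at 18.8, 19.98 and 19.4 TPM in YJM975, and YEL077W-A was listed at 0 against 25.2, 23.0 and 21.3 TPM. SEO1, a putative permease gene, was listed at 0 in RM11 and stood at 16.2, 20.8 and 20.3 TPM in YJM975. PHO11, a secreted acid phosphatase gene near-identical to PHO12, was also listed at 0 in RM11, against 14.3, 13.1 and 13.6 TPM. The division of reads between PHO11 and PHO12 is uncertain, so the 0 does not show that the transcript was absent. No fold or log2 difference is given for genes listed at 0 in every library of a strain, since a transcript that diverges from the sequence used for counting can also be listed at 0.

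Among the genes lower in YJM975, HXT7, a high-affinity hexose transporter, was at 308, 421 and 411 TPM in RM11 and 0.123, 0.0724 and 0.0593 TPM in YJM975. HXT6, its near-identical neighbour, ran the other way, at 166, 222 and 206 TPM in RM11 and 570.0, 759 and 615 TPM in YJM975. The groups overlapped for neither gene, and the division of reads between such copies is uncertain. Neither difference can therefore be read alone, and the sum of the pair was not tested. YDR042C, an uncharacterised gene, was at 150.1, 148 and 148 TPM in RM11 and 0.357, 0.600 and 0.857 TPM in YJM975. GAT4, which encodes a GATA-family zinc finger protein, was at 75.5, 69.6 and 61.7 TPM in RM11 and 0.116, 0.246 and 0 TPM in YJM975. Both were near 0 in every YJM975 library and clearly expressed in every RM11 library. RRT5, of unknown function, and PIR5, of the PIR cell wall protein family, had log2 differences of -5.75 ± 0.15 and -5.75 ± 0.11. MAL32, a maltase gene near-identical to MAL12, was at 95.2, 98.9 and 95.7 TPM in RM11 and 1.18, 1.51 and 1.13 TPM in YJM975.

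Meiosis and sporulation genes were mostly lower in YJM975, although the transcript of their master regulator was not. Among 38 early meiosis and recombination genes 2 were higher and 33 lower (10 and 26 with median centring), and the median log2 difference was -1.38 (-0.78 relative to all genes). Among 55 middle and late sporulation genes 4 were higher and 51 lower (7 and 41 with median centring), with a median of -1.68 (-1.08 relative to all genes). IME1 stood at 164, 150.0 and 145 TPM in RM11 and 219, 219 and 243 TPM in YJM975. All 3 YJM975 libraries were above the 3 RM11 libraries, a log2 difference of 0.57 ± 0.07 (limma adjusted p = 4.40e-07). IME4, the mRNA methyltransferase of early meiosis, did not pass the test although the groups did not overlap, at 18.05, 17.6 and 17.5 TPM in RM11 and 18.3, 21.2 and 18.8 TPM in YJM975 and a log2 difference of 0.12 ± 0.07 (limma adjusted p = 0.106), or 0.81 and called with median centring. IME2, the kinase gene downstream of Ime1, was at 49.4, 44.7 and 43.2 TPM in RM11 and 3.65, 4.21 and 3.24 TPM in YJM975, with no overlap and a log2 difference of -3.32 ± 0.08 (limma adjusted p = 3.44e-16). NDT80, the activator of middle sporulation genes, was at 12.2, 12.6 and 11.98 TPM in RM11 and 6.32, 7.34 and 7.34 TPM in YJM975, a log2 difference of -0.73 ± 0.06 (limma adjusted p = 3.94e-09) that was close to the median gene and was -0.05 with median centring and 0.22 with quantile normalization. RNA from whole cultures cannot tell fewer cells in meiosis from less meiotic RNA per cell.

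The early list was led by genes of meiotic recombination. SAE3 and MEI5 encode accessory factors of the meiotic recombinase, which DMC1 encodes. SAE3 was at 38.1, 29.7 and 28.8 TPM in RM11 and 0.205, 0.864 and 0.200 TPM in YJM975, DMC1 at 63.2, 59.0 and 55.5 TPM in RM11 and 1.98, 2.17 and 1.75 TPM in YJM975 and MEI5 at 15.2, 13.1 and 12.7 TPM in RM11 and 0.0882, 0.189 and 0.305 TPM in YJM975. In YJM975, SAE3 and MEI5 were below 1 TPM in each library and DMC1 between 1.75 and 2.17 TPM, and the groups of the 3 genes lay far apart. SPO13, which sets the division pattern of meiosis I, was at 19.0, 17.997 and 18.4 TPM in RM11 and 0.247, 0.165 and 0.305 TPM in YJM975, and REC8, the meiotic cohesin subunit, at 20.4, 18.5 and 18.7 TPM in RM11 and 1.55, 1.57 and 1.33 TPM in YJM975. The log2 differences were -4.56 ± 0.19 for SAE3, -4.34 ± 0.10 for DMC1 and -3.97 ± 0.11 for SPO13.

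Genes of spore formation ranged from -8.64 to 1.84 on the log2 scale. SPS4, a sporulation gene of unknown biochemical function, was at 692, 609 and 606 TPM in RM11 and 0.487, 0.604 and 0.685 TPM in YJM975, a log2 difference of -8.64 ± 0.30 (limma adjusted p = 1.37e-14). Every RM11 library lay far above the YJM975 libraries, which were all below 1 TPM. SPR2, also sporulation-specific, was at 172, 173 and 181 TPM in RM11 and 1.54, 2.39 and 2.08 TPM in YJM975, and SPO19, a surface protein gene of the prospore membrane, at 75.1, 77.9 and 79.0 TPM in RM11 and 1.88, 1.36 and 2.38 TPM in YJM975. The groups of both genes lay far apart. The spore wall chitin deacetylase gene CDA2 was at 31.3, 31.7 and 29.5 TPM in RM11 and 0.255, 0.212 and 0.224 TPM in YJM975 and the outer spore wall gene OSW1 at 25.6, 22.8 and 24.7 TPM in RM11 and 0.164, 0.210 and 0.162 TPM in YJM975. The 4 genes that were higher in YJM975 were FMP45, a membrane protein gene also expressed outside sporulation, at 386, 361 and 361 TPM in RM11 and 1369, 1369 and 1240.4 TPM in YJM975, CRR1, a spore wall glycoside hydrolase gene, the vacuolar protease gene PRB1 and SPO75. The log2 difference was 1.84 ± 0.08 for FMP45, 0.97 ± 0.06 for CRR1, 0.53 ± 0.09 for PRB1 and 0.26 ± 0.06 for SPO75, and these were named after their values were seen.

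Promoters of the S288C reference (RefSeq, build R64) illustrate the sequence elements of these lists. The window runs from 250 bases before to 50 bases after the annotated start (300 bases in all), both strands were searched, and the strains' own promoters, which may differ, were not read. The core of the early meiotic element URS1, GGCGGC, occurred in 22 of the 38 early meiosis promoters (57.9%) and in 5.17% of all 5762 promoters of tested genes. The 22 genes with it had a median log2 difference of -1.76 and the other members -0.82. The core of the middle sporulation element MSE, CNCAAAA, occurred in 33 of 55 sporulation promoters (60%) and 24.1% of all promoters, with medians of -1.91 with it and -1.67 without. SAE3 carries the URS1 core at 109 bases before the start (chrVIII:262504-262803, minus strand) and SPS4 carries the MSE core at 190 and 75 bases (chrXV:902825-903124, minus strand). They are shown since these genes had the largest differences of their lists, with the matched letters in capitals.
SAE3: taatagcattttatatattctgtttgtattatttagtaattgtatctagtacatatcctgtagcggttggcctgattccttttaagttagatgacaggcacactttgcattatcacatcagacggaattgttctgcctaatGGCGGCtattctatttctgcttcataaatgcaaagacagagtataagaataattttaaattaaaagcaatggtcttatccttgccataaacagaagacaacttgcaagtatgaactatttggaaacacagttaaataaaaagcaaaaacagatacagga
SPS4: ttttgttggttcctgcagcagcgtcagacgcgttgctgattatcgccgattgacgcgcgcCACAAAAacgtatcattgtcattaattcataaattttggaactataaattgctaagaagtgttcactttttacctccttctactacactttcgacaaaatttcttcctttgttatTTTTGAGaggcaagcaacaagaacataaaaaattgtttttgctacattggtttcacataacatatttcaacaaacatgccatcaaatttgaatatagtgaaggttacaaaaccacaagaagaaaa
A match describes the letters in this window and is not evidence of binding.

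**Figure D2:**
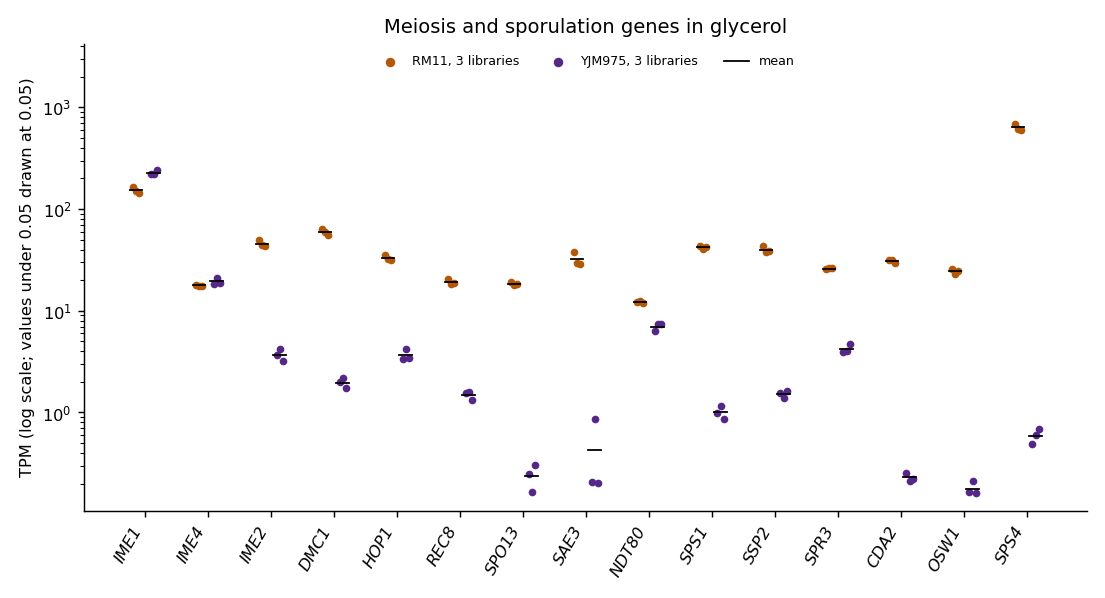
TPM in each of 3 RM11 and 3 YJM975 glycerol libraries (points; line, mean; log axis) for 15 meiosis and sporulation genes, from the regulators IME1 and IME4 on the left to SPS4 on the right. IME1 is higher in YJM975, IME4 lies close in both strains, and the other 13 genes are lower in YJM975 in every library.

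Genes for building and running cytosolic ribosomes were lower in YJM975. In the ribosome biogenesis list, 0 of 93 genes were higher and 93 lower, also with median centring, and the median log2 difference was -2.44 (-1.84 relative to all genes). The summed TPM of the list was 0.914 ± 0.0283% of the total in RM11 libraries and 0.250 ± 0.0116% in those of YJM975 (SD, n = 3). Subunits of RNA polymerases I and III, which transcribe ribosomal, 5S and transfer RNAs, were lower for 27 of 27 genes (25 lower and 1 higher with median centring), with a median of -2.0. The 137 cytosolic ribosomal protein genes, 21 of them with near-identical copies, were all lower, or 118 lower and 3 higher when centred, with a median of -1.25 and -0.65 relative to all genes. Their share of all TPM was 12.2 ± 0.293% in RM11 and 5.65 ± 0.175% in YJM975, groups that did not overlap (two-sided exact permutation p = 0.1, the smallest that 3 against 3 libraries can give). Translation factors were lower for 35 of 36 genes (29 lower and 3 higher with median centring) and cytosolic aminoacyl-tRNA synthetases for 19 of 20 (16 lower and 1 higher), with medians of -1.30 and -1.49.

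DBP2, an RNA helicase gene, stood at 154, 181 and 172 TPM in RM11 and 10.3, 13.8 and 10.1 TPM in YJM975. Its groups lay more than 10-fold apart and the log2 difference was -3.79 ± 0.12 (limma adjusted p = 6.61e-15). SSF1, a factor for 60S subunit assembly, was at 45.5, 50.8 and 49.7 TPM in RM11 and 2.52, 2.89 and 2.64 TPM in YJM975, and UTP15, of the small subunit processome, at 35.7, 40.2 and 39.1 TPM in RM11 and 2.99, 2.88 and 3.00 TPM in YJM975. KRS1, the lysyl-tRNA synthetase, was at 250.4, 293 and 266 TPM in RM11 and 23.7, 27.9 and 23.0 TPM in YJM975, and ANB1, the eIF5A isoform associated with low oxygen, at 28.7, 33.7 and 27.6 TPM in RM11 and 2.50, 2.28 and 1.67 TPM in YJM975. RPA12 and RPA43, subunits of RNA polymerase I, had log2 differences of -3.49 ± 0.10 and -3.43 ± 0.10. Among ribosomal protein genes, RPS22A of the small subunit was at 385, 392 and 368 TPM in RM11 and 56.4, 59.0 and 67.2 TPM in YJM975 and RPL29 of the large subunit at 1959.6, 1910.2 and 1839.9 TPM in RM11 and 314, 253 and 295 TPM in YJM975. These were among the largest differences of their lists.

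The sequence elements of ribosome biogenesis promoters are dense in this list. The PAC element, GATGAG, occurred in 85 of 93 promoters (91.4%), in 70.4% of the polymerase promoters and in 19.7% of all promoters. The RRPE element, AAAAATTTT, occurred in 68.8% of the ribosome biogenesis promoters and 7.20% of all. Within the ribosome biogenesis list the medians with and without the element were close, at -2.44 and -2.41 for PAC and -2.42 and -2.49 for RRPE. Over all 5762 promoters, genes with the PAC element had a median log2 difference of -0.88 and those without it -0.57, and genes with the RRPE element had -1.31 against -0.57. DBP2, with the largest difference of the list, carries them on the reverse strand at 155 (PAC) and 145 (RRPE) bases before its start (chrXIV:413389-413688, plus strand), in capitals below.
DBP2: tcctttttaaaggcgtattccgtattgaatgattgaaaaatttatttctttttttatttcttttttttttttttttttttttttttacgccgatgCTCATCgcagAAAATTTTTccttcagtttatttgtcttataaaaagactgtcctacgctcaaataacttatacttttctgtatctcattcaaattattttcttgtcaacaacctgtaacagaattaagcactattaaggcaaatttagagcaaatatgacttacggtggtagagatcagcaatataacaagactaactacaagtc
In each window printed here the last 50 bases follow the annotated start.

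**Figure D3:**
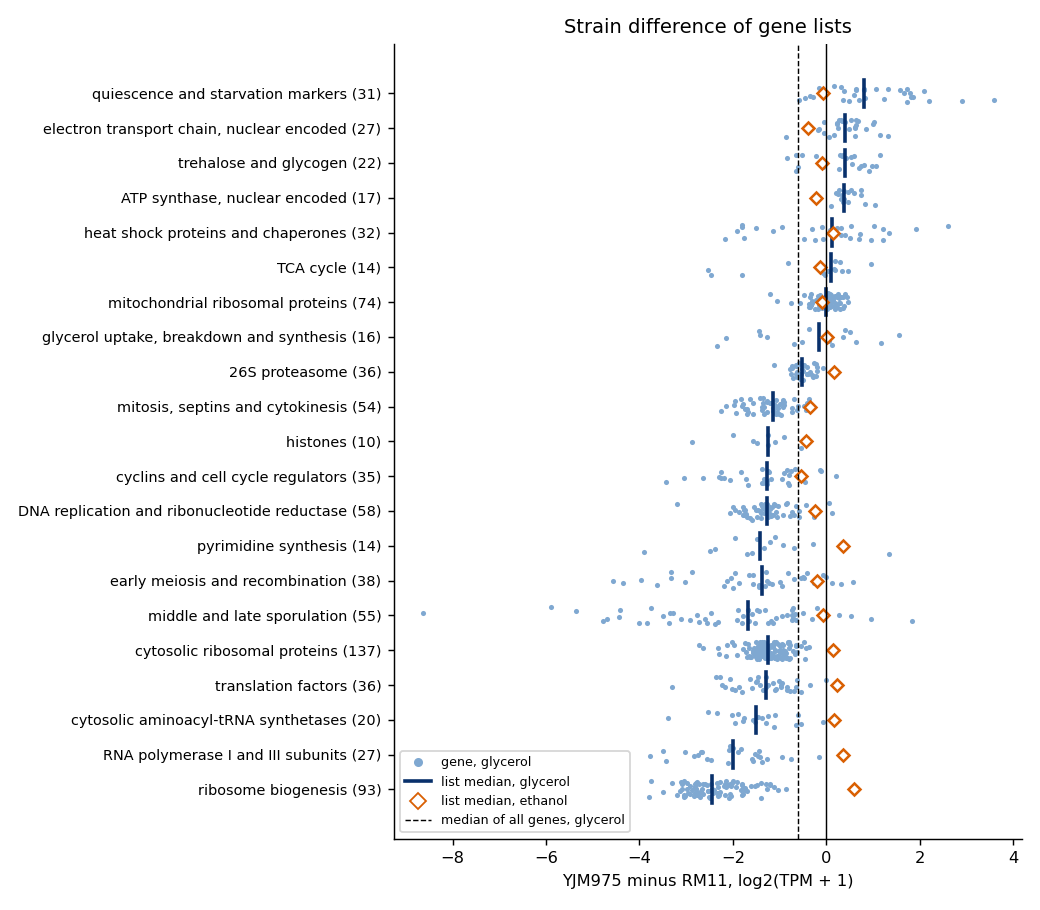
Log2 difference of TPM + 1 in glycerol (YJM975 minus RM11, x axis) for the tested genes of 21 lists (points; number of genes in brackets), with the list median in glycerol (bar) and in ethanol (diamond); the dashed line is the median of all genes in glycerol, -0.60. Ribosome biogenesis has the lowest glycerol median, -2.44, and the highest ethanol median shown, 0.59.

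Genes of oxidative phosphorylation were higher in YJM975. Among 27 nuclear genes of the electron transport chain 21 were higher and 2 lower (26 and 0 with median centring), and the median log2 difference was 0.40 (1.00 relative to all genes). All 17 nuclear ATP synthase genes were higher, also with median centring, with a median of 0.38. The electron transport chain list took 2.52% of TPM in RM11 and 3.79% in YJM975, and the ATP synthase list 2.08% and 3.17%. QCR10, a subunit of the cytochrome bc1 complex, was at 1615, 1482 and 1384 TPM in RM11 and 2936, 2906 and 3205 TPM in YJM975, a log2 difference of 1.01 ± 0.06 (limma adjusted p = 4.04e-11). CYC7, the minor isoform of cytochrome c, was at 82.9, 70.4 and 79.2 TPM in RM11 and 151, 162 and 156 TPM in YJM975, and CYC1, the major isoform, had a log2 difference of 0.40 ± 0.05. ATP18, a subunit of the ATP synthase stalk, was at 2212, 2134 and 1774 TPM in RM11 and 3294, 3331 and 3596 TPM in YJM975, and INH1, an inhibitor of its reverse reaction, at 1236, 1263 and 1183 TPM in RM11 and 1996, 2048 and 2086 TPM in YJM975. All of these were above RM11 in every YJM975 library. The 2 lower genes were NDE1, the external NADH dehydrogenase, at -0.86 ± 0.09, and SDH1, the flavoprotein of succinate dehydrogenase, with groups that overlapped, at -0.19 ± 0.07, or 0.50 with median centring; its call was lost without RM11 library 2 or 3 or YJM975 library 1 or 3, at -0.18, -0.15, -0.18 and -0.14.

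The rest of the mitochondrial gene set did not move as one. Mitochondrial ribosomal protein genes were divided, 23 higher and 23 lower of 74, with a median log2 difference of 0.00, and 70 were higher and 2 lower with median centring. Factors of respiratory chain assembly were higher for 15 and lower for 21 of 39 (31 and 4 with median centring). In the TCA cycle 7 of 14 genes were higher and 4 lower (10 and 4 with median centring), and 4 were higher without RM11 library 1 or without YJM975 library 2. CIT1, the mitochondrial citrate synthase, was at 436, 474 and 472 TPM in RM11 and 866, 979 and 837 TPM in YJM975, a log2 difference of 0.95 ± 0.07 (limma adjusted p = 1.04e-09). LSC2, the beta subunit of succinyl-CoA ligase, was at 986, 1011 and 997 TPM in RM11 and 167, 182 and 170.0 TPM in YJM975, a log2 difference of -2.52 ± 0.06 (limma adjusted p = 8.14e-17). The groups were apart in both genes and in opposite order. CIT3, a minor mitochondrial citrate synthase, was lower, with a log2 difference of -1.81 ± 0.09.

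The genes that use glycerol showed no common direction. STL1, the glycerol and proton symporter, was at 48.3, 54.6 and 59.3 TPM in RM11 and 155, 171 and 156 TPM in YJM975. All YJM975 libraries were above all RM11 libraries, by a log2 difference of 1.56 ± 0.07 (limma adjusted p = 1.03e-12). GUT1, the glycerol kinase, was at 250.2, 259 and 251 TPM in RM11 and 339, 354 and 309 TPM in YJM975, a log2 difference of 0.39 ± 0.07 (limma adjusted p = 7.71e-05). GUT2, the mitochondrial glycerol-3-phosphate dehydrogenase, was lower, at 356, 381 and 372 TPM in RM11 and 283, 319 and 261 TPM in YJM975, and its log2 difference was -0.37 ± 0.08 (limma adjusted p = 2.32e-04), or 0.32 with median centring, the opposite sign. DAK1, a dihydroxyacetone kinase, was at 85.4, 86.8 and 87.7 TPM in RM11 and 184, 223 and 184 TPM in YJM975, and GCY1, a glycerol dehydrogenase of the same side route, had a log2 difference of 0.64 ± 0.04.

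Among genes of glycerol synthesis and export, both phosphatase genes and the export channel were lower. GPP1 and GPP2 encode the phosphatases that release glycerol from glycerol 3-phosphate. GPP1 was at 599.6, 821 and 719.9 TPM in RM11 and 155, 164 and 157 TPM in YJM975, and GPP2 at 238, 312 and 267 TPM in RM11 and 53.6, 52.6 and 51.3 TPM in YJM975. Their log2 differences were -2.15 ± 0.19 (limma adjusted p = 8.51e-09) and -2.35 ± 0.22 (limma adjusted p = 1.21e-08), with larger standard errors than most genes. GPD2, an isoform of the cytosolic glycerol-3-phosphate dehydrogenase, was lower, with a log2 difference of -1.44 ± 0.06, while the other isoform, GPD1, was higher, at 0.35 ± 0.05. FPS1, the glycerol export channel, had -1.26 ± 0.06, and ASK10, which regulates that channel, -1.42 ± 0.07. GUP1, an acyltransferase first linked to glycerol uptake, and RGC1, a regulator of the channel, did not pass the test, at 0.13 ± 0.09 and 0.05 ± 0.08, but did with median centring, at 0.82 and 0.73. In all, 6 of the 16 genes in this list were higher and 8 lower (centred, 10 and 5).

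In central carbon metabolism, single isoforms stood apart from their pathways. HXK2, the hexokinase of growth on glucose, was at 64.8, 78.3 and 70.9 TPM in RM11 and 1.64, 2.20 and 1.67 TPM in YJM975, a log2 difference of -4.67 ± 0.12 (limma adjusted p = 5.14e-16). ADH2, the alcohol dehydrogenase that consumes ethanol, was at 1554, 1794 and 1709.7 TPM in RM11 and 258, 260.2 and 231 TPM in YJM975, and PCK1, the gluconeogenic phosphoenolpyruvate carboxykinase, at 276, 265 and 274 TPM in RM11 and 37.9, 48.6 and 38.7 TPM in YJM975. ACS1, an acetyl-CoA synthetase of respiring cells, was at 866, 936 and 990.3 TPM in RM11 and 185, 218 and 173 TPM in YJM975. In these genes every YJM975 library was below every RM11 library, with log2 differences of -2.75 ± 0.09 for ADH2, -2.68 ± 0.08 for PCK1 and -2.28 ± 0.09 for ACS1. PDC6, a minor pyruvate decarboxylase isoform, ran the other way, at 313, 306 and 325 TPM in RM11 and 1904, 2054 and 1834 TPM in YJM975, as did TDH1, a glyceraldehyde-3-phosphate dehydrogenase isoform, at 277, 310.4 and 308 TPM in RM11 and 1485, 1532 and 1464 TPM in YJM975. ICL1, the glyoxylate cycle's isocitrate lyase, did not pass the test, at 496, 508 and 528 TPM in RM11 and 442, 514 and 436 TPM in YJM975, with a log2 difference of -0.14 ± 0.07 that became 0.54 and a call with median centring, and CIT2, its peroxisomal citrate synthase, was higher by 1.08 ± 0.08. Of 27 glycolysis and fermentation genes 8 were higher and 14 lower (21 and 4 with median centring), and of 15 glyoxylate cycle and gluconeogenesis genes 4 were higher and 10 lower (8 and 7).

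Transporters of acetate and sugars gave some of the largest differences in carbon metabolism. ADY2, an acetate transporter gene also on the sporulation list, was at 411, 448 and 452 TPM in RM11 and 8.32, 11.5 and 9.43 TPM in YJM975, a log2 difference of -5.36 ± 0.09 (limma adjusted p = 1.24e-17). ATO2, of the same family, was at 383, 436 and 438 TPM in RM11 and 1124, 1131 and 1100.1 TPM in YJM975, so these relatives were ordered oppositely. ALD5, a mitochondrial aldehyde dehydrogenase, was lower at -3.33 ± 0.07 and ACH1, a mitochondrial CoA transferase that acts on acetyl-CoA, higher at 1.47 ± 0.06. Among 21 hexose transporter and sensor genes 3 were higher and 17 lower (5 and 10 with median centring). HXT2, a transporter of intermediate affinity, was at 68.1, 126 and 108 TPM in RM11 and 9.34, 10.4 and 10.7 TPM in YJM975 and HXT10, a transporter of low expression in most media, at 23.1, 29.4 and 32.0 TPM in RM11 and 0.645, 0.722 and 0.639 TPM in YJM975. MAL11, an alpha-glucoside permease, was at 21.6, 21.8 and 20.6 TPM in RM11 and 0.0128, 0 and 0 TPM in YJM975 and MAL13, a maltose regulator, at 10.1, 10.002 and 9.96 TPM in RM11 and listed at 0 in YJM975. SUC2, the invertase, was at 25.9, 30.9 and 28.1 TPM in RM11 and 2.37, 2.97 and 2.66 TPM in YJM975. Of 42 carbon source regulators 10 were higher and 25 lower (23 and 15 with median centring), with a median log2 difference of -0.44 beside -0.60 for all genes. MIG1, the repressor of glucose-repressed genes, was at 45.6, 56.6 and 54.5 TPM in RM11 and 6.39, 6.75 and 5.97 TPM in YJM975, TOD6, a repressor that binds the PAC element, at 61.8, 73.4 and 72.3 TPM in RM11 and 12.3, 12.3 and 11.8 TPM in YJM975, and IFH1, a coactivator of ribosomal protein genes, at 30.4, 29.8 and 27.5 TPM in RM11 and 6.33, 7.24 and 6.60 TPM in YJM975. The log2 difference was -2.85 ± 0.08 for MIG1, -2.42 ± 0.08 for TOD6 and -1.97 ± 0.06 for IFH1. In the Ras and protein kinase A pathway, PDE2, the high-affinity cAMP phosphodiesterase, was at 48.7, 59.2 and 46.1 TPM in RM11 and 5.92, 9.28 and 6.63 TPM in YJM975 and TPK2, a catalytic subunit of the kinase, at 71.1, 70.2 and 69.6 TPM in RM11 and 156, 166 and 154 TPM in YJM975, in opposite order.

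**Figure D4:**
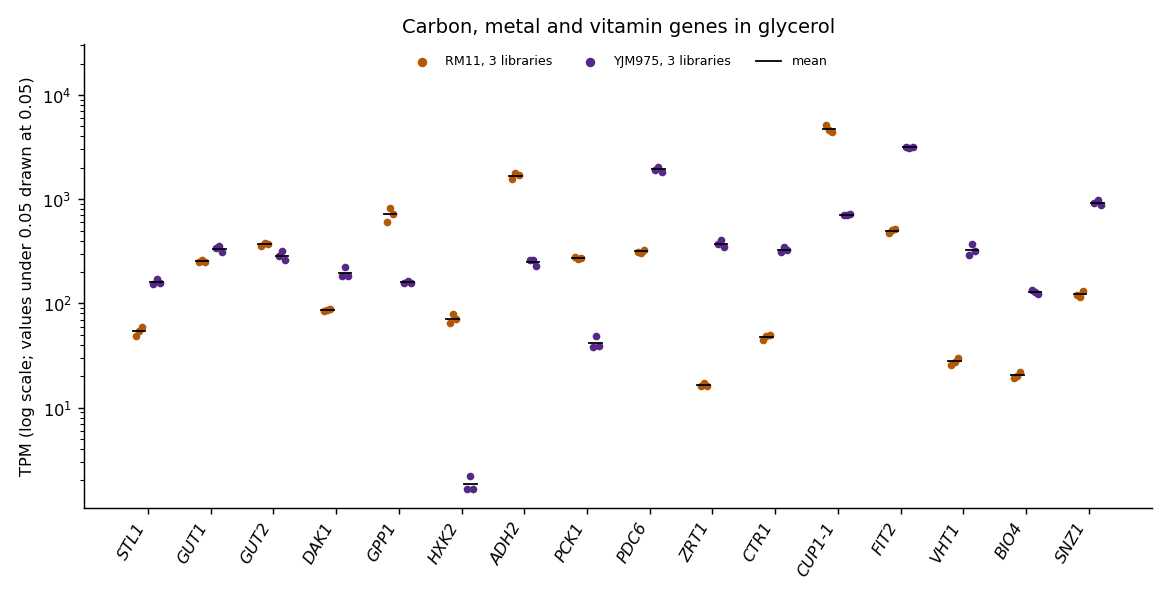
TPM in each of 3 RM11 and 3 YJM975 glycerol libraries (points; line, mean; log axis) for genes of glycerol use, carbon metabolism, metals and vitamins. STL1, ZRT1, VHT1 and CTR1 are higher in YJM975 in every library and HXK2, ADH2, PCK1 and CUP1-1 lower.

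Stress and quiescence genes gave the 5 most abundant transcripts, and most quiescence markers were higher in YJM975. Among 31 quiescence and starvation markers 26 were higher and 4 lower (31 and 0 with median centring), and the median log2 difference was 0.82 (1.42 relative to all genes). Their summed TPM was 16.02 ± 0.279% of the total in RM11 libraries and 27.6 ± 0.601% in YJM975 (SD, n = 3). SIP18, a phospholipid-binding protein of desiccation stress, was the highest gene by mean TPM, at 52330.0, 49241 and 49858 TPM in RM11 and 89218, 82722 and 91467 TPM in YJM975. DDR2, of the general stress response, was at 51595, 49945 and 51775 TPM in RM11 and 68097, 63300.0 and 65706 TPM in YJM975 and GRE1, a hydrophilin, at 26848, 26824 and 27757 TPM in RM11 and 41448, 44588 and 40835 TPM in YJM975. TMA10, a ribosome-associated protein, was at 12425, 11943 and 12786 TPM in RM11 and 46370.0, 40057 and 42002 TPM in YJM975 and HSP12, a small membrane-stabilising heat shock protein, at 16629, 16061 and 15891 TPM in RM11 and 31262, 32527 and 30803 TPM in YJM975. In these 5 genes, the highest by mean TPM, every YJM975 library exceeded every RM11 library, with log2 differences from 0.36 for DDR2 to 1.79 for TMA10. Under quantile normalization, which equalises these top ranks, DDR2 and GRE1 changed sign, at -0.31 and -0.25, and HSP12 did not pass the test, at 0.12.

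RGI1, a gene of respiratory growth, was at 90.7, 69.1 and 64.4 TPM in RM11 and 341, 351 and 337 TPM in YJM975, a log2 difference of 2.20 ± 0.10 (limma adjusted p = 5.04e-13). SNZ1 and SNO1, partners in vitamin B6 synthesis, were at 121, 114 and 131 TPM in RM11 and 916, 971 and 880.1 TPM in YJM975 for SNZ1 and 23.4, 23.4 and 22.7 TPM in RM11 and 99.5, 103 and 102 TPM in YJM975 for SNO1. SNZ2, with the near-identical copy SNZ3, was at 0.0784, 0.378 and 0 TPM in RM11 and 14.3, 13.02 and 11.1 TPM in YJM975. YJM975 was higher throughout. Of 22 trehalose and glycogen genes 15 were higher and 6 lower (18 and 1 with median centring), led by TPS1, the trehalose-6-phosphate synthase, at 111, 127 and 130.3 TPM in RM11 and 276, 292 and 252 TPM in YJM975. Heat shock proteins and chaperones were higher for 16 of 32 and lower for 11 (24 and 8 with median centring), with a median of 0.12. HSP30, which restrains the plasma membrane proton pump, was at 15.7, 18.1 and 15.98 TPM in RM11 and 93.9, 123 and 104 TPM in YJM975, and HSP42, a small heat shock protein, at 155, 155 and 166 TPM in RM11 and 616, 598 and 583 TPM in YJM975. YDJ1, a cytosolic J-protein, was at 221, 258 and 250.1 TPM in RM11 and 54.5, 52.5 and 51.6 TPM in YJM975, and CPR7, a cyclophilin partner of Hsp90, had -1.92 ± 0.09, so this list held members far to both sides. Among 36 genes of peroxide and superoxide defence 18 were higher and 16 lower (29 and 4 with median centring), with the cytosolic superoxide dismutase SOD1 at 1.29 ± 0.06 and the peroxisomal catalase CTA1 at -1.76 ± 0.06.

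The stress response element STRE, AGGGG, occurred in 41.9% of the quiescence promoters, 40.9% of the trehalose and glycogen promoters, 37.5% of the heat shock promoters and 22.0% of all promoters. Over all promoters, genes with the STRE had a median log2 difference of -0.32 and those without it -0.69. RGI1, shown for its difference, which in the quiescence list only those of SNZ2 and SNZ1 exceeded, carries the element at 234 and 218 bases before the start (chrV:291816-292115, plus strand).
RGI1: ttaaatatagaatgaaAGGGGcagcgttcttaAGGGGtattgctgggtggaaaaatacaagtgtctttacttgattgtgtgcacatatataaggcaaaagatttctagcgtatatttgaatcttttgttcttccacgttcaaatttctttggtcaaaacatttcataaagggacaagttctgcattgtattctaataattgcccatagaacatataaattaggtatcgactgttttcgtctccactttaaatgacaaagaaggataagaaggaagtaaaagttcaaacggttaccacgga
Both matches, in capitals, lie on the strand of the gene.

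Genes of the cell cycle were lower in YJM975. Of 35 cyclin and cell cycle regulator genes 1 was higher and 33 lower (5 and 25 with median centring), of 58 DNA replication and ribonucleotide reductase genes 1 and 56 (5 and 48; 2 and 0 higher without RM11 library 1 and YJM975 library 2), of 54 genes of mitosis, septins and cytokinesis 0 and 54 (4 and 45), and of 10 histone genes 0 and 10 (1 and 8). The medians of the lists were -1.26, -1.28, -1.15 and -1.25. The G1 cyclin genes PCL1 and CLN1 were at 88.7, 81.1 and 91.7 TPM in RM11 and 6.68, 7.53 and 7.31 TPM in YJM975 and 68.1, 62.9 and 67.6 TPM in RM11 and 7.09, 7.25 and 6.89 TPM in YJM975. CLB1, a mitotic cyclin, was at 16.3, 16.8 and 14.3 TPM in RM11 and 1.73, 1.56 and 1.82 TPM in YJM975, and RNR1, the large subunit of ribonucleotide reductase, at 34.7, 36.1 and 36.2 TPM in RM11 and 2.81, 3.26 and 2.94 TPM in YJM975. Neither group overlapped the other for these genes, with log2 differences of -3.43 ± 0.08 for PCL1, -3.06 ± 0.07 for CLN1, -2.63 ± 0.08 for CLB1 and -3.20 ± 0.08 for RNR1. The histone H2B gene HTB2 was at 357, 371 and 345 TPM in RM11 and 45.7, 50.8 and 47.2 TPM in YJM975, and the other H2B gene, HTB1, had -1.10 ± 0.05. AMN1, an antagonist of mitotic exit, had a log2 difference of -2.26 ± 0.07 and SLI15, of the chromosomal passenger complex, one of -2.15 ± 0.09.

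The MCB element, ACGCGT, occurred in 27 of 58 DNA replication promoters (46.6%) and in 3.18% of all promoters. Over all promoters, the median log2 difference was -1.04 for genes with it and -0.59 without. POL30, the sliding clamp PCNA, was at 28.2, 27.6 and 23.8 TPM in RM11 and 5.46, 5.76 and 5.55 TPM in YJM975, with a log2 difference of -2.06 ± 0.07 (limma adjusted p = 2.04e-14), and its promoter (chrII:425717-426016, minus strand) holds the element, in capitals, at 195 bases before the start.
POL30: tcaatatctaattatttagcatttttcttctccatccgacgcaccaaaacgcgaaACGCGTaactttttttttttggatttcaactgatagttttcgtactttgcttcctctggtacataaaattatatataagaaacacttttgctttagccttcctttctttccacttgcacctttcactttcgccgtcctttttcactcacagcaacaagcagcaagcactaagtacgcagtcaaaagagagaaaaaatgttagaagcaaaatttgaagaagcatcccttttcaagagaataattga
The element occurred in 0 of 35 cyclin and cell cycle regulator promoters, and the SCB element, CNCGAAA, in 3 of these (8.57%) and 14.1% of all promoters. Within the DNA replication list the medians with and without the element were close, at -1.28 and -1.26.

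Single genes for metal uptake differed strongly, within lists that were divided. At least 2-fold differences were held by 4 higher and 3 lower of 20 zinc genes. They were held by 4 and 2 of 13 copper genes and 3 and 3 of 35 iron genes. Of all genes, 3.07% were higher and 31.6% lower by as much. ZRT1, the high-affinity zinc transporter, was at 15.9, 17.2 and 16.2 TPM in RM11 and 373, 403 and 346 TPM in YJM975, a log2 difference of 4.43 ± 0.07 (limma adjusted p = 4.20e-18). ZRT2, the low-affinity transporter, and ZAP1, their activator, were also higher, at 1.44 ± 0.06 and 0.60 ± 0.08. IZH4, IZH2 and IZH1, membrane proteins that act in zinc homeostasis, were lower, at -4.10 ± 0.10, -2.16 ± 0.06 and -1.99 ± 0.07. The zinc list had 10 higher and 8 lower of 20 (13 and 3 with median centring). CTR1, the high-affinity copper transporter, was at 44.5, 49.1 and 49.8 TPM in RM11 and 309, 349.5 and 327 TPM in YJM975, and CTR3, which has the same activity, at 128, 126 and 124 TPM in RM11 and 484, 494 and 539 TPM in YJM975. The near-identical metallothionein genes CUP1-1 and CUP1-2, with identical values, were at 5150.3, 4581 and 4374 TPM in RM11 and 705, 697 and 714 TPM in YJM975. CTR1 and CTR3 were thus high in YJM975 and the copper-binding metallothionein genes high in RM11, without overlap. The copper list as a whole was divided, with 6 higher and 6 lower of 13 (10 and 2 with median centring). FIT2, a cell wall mannoprotein that retains iron siderophores, was at 469, 509 and 519 TPM in RM11 and 3180.3, 3066 and 3172 TPM in YJM975, and the iron list had 14 higher and 14 lower of 35 (28 and 5 with median centring).

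Biotin genes were higher together in YJM975. VHT1, the biotin transporter, was at 25.5, 27.6 and 30.2 TPM in RM11 and 292, 375 and 319 TPM in YJM975, a log2 difference of 3.51 ± 0.09 (limma adjusted p = 5.92e-16). BIO4, the dethiobiotin synthetase, was at 19.3, 20.2 and 21.8 TPM in RM11 and 134, 129.96 and 123 TPM in YJM975, and BIO5, the uptake gene for a biotin precursor, at 11.2, 12.2 and 11.7 TPM in RM11 and 69.4, 73.0 and 70.3 TPM in YJM975. BIO3 and BIO2, of the synthesis steps before and after, had log2 differences of 2.40 ± 0.08 and 1.35 ± 0.05, so the 5 biotin uptake and synthesis genes on the list were higher in YJM975 in every library. PHO3, an acid phosphatase of thiamine uptake, was at 32.6, 37.1 and 35.7 TPM in RM11 and 3.33, 3.47 and 3.29 TPM in YJM975. The list of thiamine and biotin genes had 10 higher and 12 lower of 23 (17 and 5 with median centring).

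Most amino acid and nucleotide synthesis lists had more genes lower than higher, beside 70.4% of all genes lower, and the sulfur list was divided. With median centring the lists differed from each other in direction. Of 42 genes for histidine, aromatic and other amino acids 4 were higher and 36 lower (13 and 27 with median centring), with a median log2 difference of -1.27. The 2 members with the largest difference act in breakdown of aromatic amino acids, ARO9, an aromatic aminotransferase, at 134, 150.3 and 149 TPM in RM11 and 5.52, 5.59 and 5.92 TPM in YJM975 and ARO10, a phenylpyruvate decarboxylase, at 365, 347 and 354 TPM in RM11 and 16.2, 20.5 and 18.4 TPM in YJM975. GDH1, the main glutamate dehydrogenase of ammonium assimilation, was at 125, 148 and 139 TPM in RM11 and 24.4, 27.3 and 26.03 TPM in YJM975, and ASN1, an asparagine synthetase, had -2.22 ± 0.07. LEU9, an isopropylmalate synthase isoform, was at 20.1, 22.4 and 22.6 TPM in RM11 and 1.51, 1.44 and 1.45 TPM in YJM975, and LEU2, the isopropylmalate dehydrogenase, ran the other way, at 23.1, 27.6 and 26.1 TPM in RM11 and 57.6, 54.5 and 54.0 TPM in YJM975. In arginine metabolism, CAR1, the arginase, was at 234, 233 and 267 TPM in RM11 and 19.9, 19.5 and 20.4 TPM in YJM975, and PUT1, the proline oxidase, at 65.0, 73.7 and 76.2 TPM in RM11 and 288.34, 318 and 281 TPM in YJM975, so genes of the route from arginine through proline were ordered oppositely. The arginine list had 5 higher and 9 lower of 17 (8 and 5 with median centring), the branched-chain list 1 and 11 of 13 (4 and 8) and the lysine list 1 and 10 of 11 (5 and 5). Sulfur amino acid genes were divided, 19 higher and 16 lower of 36 (25 and 10 with median centring).

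Pyrimidine genes were lower for 13 of 14 (11 lower and 2 higher with median centring) with a median of -1.41. Purine genes were lower for 16 of 22 and higher for 4, close to the 70.4% and 16.2% of all genes, whereas median centring gave 11 higher and 9 lower. URA7, the major CTP synthase, was at 34.2, 38.8 and 37.4 TPM in RM11 and 1.36, 1.79 and 1.47 TPM in YJM975, and URA1, the dihydroorotate dehydrogenase, at 208, 227 and 235 TPM in RM11 and 40.4, 45.2 and 40.7 TPM in YJM975. The exception was URA10, the minor orotate phosphoribosyltransferase, at 115, 96.2 and 93.2 TPM in RM11 and 229.9, 293 and 249.5 TPM in YJM975. IMD4, an IMP dehydrogenase, had -3.66 ± 0.10. In one-carbon metabolism 6 of 14 genes were higher and 7 lower (8 and 4 with median centring). GCV1, a subunit of the glycine cleavage system, was at 34.1, 28.8 and 31.8 TPM in RM11 and 125, 139 and 129 TPM in YJM975, and SHM2, the cytosolic serine hydroxymethyltransferase, at 341, 334 and 361 TPM in RM11 and 1145, 1234 and 1052 TPM in YJM975. FDH1, a formate dehydrogenase, was at 639, 622 and 595 TPM in RM11 and 122, 134 and 125 TPM in YJM975, and MIS1, the mitochondrial tetrahydrofolate synthase, at 23.5, 26.9 and 25.2 TPM in RM11 and 2.90, 3.86 and 2.88 TPM in YJM975. The first 2 were higher and the last 2 lower in every YJM975 library.

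Lipid lists followed the median gene and held single genes far below it. Sterol genes were lower for 27 of 31 and higher for 1, although with median centring 14 were higher and 11 lower, and fatty acid and phospholipid genes were lower for 29 and higher for 4 of 38 (21 higher and 14 lower with median centring), with medians of -0.68 and -0.51 beside -0.60 for all genes. ERG6, the sterol C-24 methyltransferase, was at 190.5, 212 and 206 TPM in RM11 and 32.5, 31.6 and 30.4 TPM in YJM975. FAA4, a fatty acyl-CoA synthetase, was at 276, 294 and 304 TPM in RM11 and 19.7, 22.2 and 18.3 TPM in YJM975, and FAS1, a subunit of fatty acid synthase, at 238, 238 and 225 TPM in RM11 and 37.0, 46.1 and 34.7 TPM in YJM975. Flocculins and cell wall genes were lower for 36 and higher for 8 of 48 (28 and 15 with median centring), with a median of -1.17, and took 6.09% of TPM in RM11 and 3.02% in YJM975. CIS3, a PIR-family mannoprotein, was at 949.5, 1034 and 1042 TPM in RM11 and 81.7, 79.6 and 83.7 TPM in YJM975, and TIP1, a mannoprotein induced by cold, at 2669, 2923 and 3129.9 TPM in RM11 and 181, 178 and 177 TPM in YJM975. PAU3, of the large PAU family whose members share much of their sequence, was at 49.3, 49.6 and 45.7 TPM in RM11 and 1.02, 0.621 and 0.976 TPM in YJM975. FLO11 was thus the opposite of most wall genes.

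The strain difference in glycerol was not the strain difference in ethanol. Libraries of both media carry the same run label, and the groups of the 2 media share no library. In ethanol the median gene differed by 0.03, with 1686 of 6292 genes (26.8%) higher and 1332 (21.2%) lower. The difference of the strain differences, glycerol minus ethanol, was tested in the same fit and passed for 5100 genes (81.1%), 965 (15.3%) positive and 4135 (65.7%) negative. In all, 1578 genes were called in opposite directions in the 2 media, and 756 were 2-fold or more lower in glycerol and called higher in ethanol. YJM975 was at least 2-fold above RM11 in both media for 47 genes and at least 2-fold below it in both for 109. All of these counts are for TPM as deposited. The median gene had a difference between the media of -0.60, and with median centring 4932 genes passed. How median centring divides them by sign, or changes the other counts, was not examined.

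Ribosome biogenesis reversed its order between glycerol and ethanol, but not in the libraries labelled glucose, described below. The list median was -2.44 in glycerol and 0.59 in ethanol, and the difference of the strain differences was negative for 93 of 93 genes. Its median over the list was -3.04, beside -0.60 for all genes. DBP2, at -3.79 ± 0.12 (limma adjusted p = 6.61e-15) in glycerol, had a log2 difference of 1.48 ± 0.12 in ethanol, and the difference between these was -5.27 ± 0.17 (limma adjusted p = 1.93e-14). The order of oxidative phosphorylation genes also reversed, with electron transport medians of 0.40 in glycerol and -0.40 in ethanol and positive differences for 24 of 27 genes. CYC7 had a log2 difference of -1.51 ± 0.06 in ethanol, a difference between the media of 2.52 ± 0.08 (limma adjusted p = 1.08e-14). HXK2 reversed as well, with 1.18 ± 0.12 in ethanol and -5.85 ± 0.17 (limma adjusted p = 6.89e-15) between the media. Sporulation genes showed their strain difference mainly in glycerol, with list medians of -1.68 in glycerol and -0.07 in ethanol. In ethanol SPS4 had mean levels of 2.80 TPM in RM11 and 0.281 TPM in YJM975, and the difference between the media was -7.31 ± 0.42 (limma adjusted p = 2.92e-11).

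Other genes kept their order in both media. PCL1 and CLN1 had log2 differences of -2.83 ± 0.08 and -2.24 ± 0.07 in ethanol, and the cyclin list had a median of -0.53 there. MAL11 and HXT7 had -4.51 ± 0.09 and -5.66 ± 0.14 in ethanol, although the division of reads between HXT7 and its near-identical copy HXT6 is uncertain. FLO11 had 3.04 ± 0.09 in ethanol, smaller than in glycerol by 5.17 ± 0.13 (limma adjusted p = 1.92e-15). ZRT1 was higher in both media, with 1.36 ± 0.07 in ethanol and 3.07 ± 0.10 (limma adjusted p = 1.63e-14) between them. VHT1, CTR1 and PUT1 were far higher in YJM975 in glycerol and not in ethanol, with ethanol log2 differences of 0.15 ± 0.09, -0.30 ± 0.07 and -0.06 ± 0.07, and differences between the media of 3.36 ± 0.13 (limma adjusted p = 1.95e-13), 3.05 ± 0.09 (limma adjusted p = 1.08e-14) and 2.09 ± 0.10 (limma adjusted p = 4.29e-12). Against the libraries labelled glucose, which carry another run label so that medium and run cannot be told apart, the difference of the strain differences passed for 4933 genes (78.4%), 1987 positive and 2946 negative. In those libraries 1407 genes (22.4%) were higher and 3826 (60.8%) lower in YJM975, again for TPM as deposited. The median gene had -0.38 there. Ribosome biogenesis genes had a median of -0.93 (4 higher and 79 lower of 93) and ribosomal protein genes -1.88 (3 and 132 of 137). Electron transport genes had 0.31 (18 and 5 of 27). The signs of these 3 list medians were those of glycerol and not those of ethanol.

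**Figure D5:**
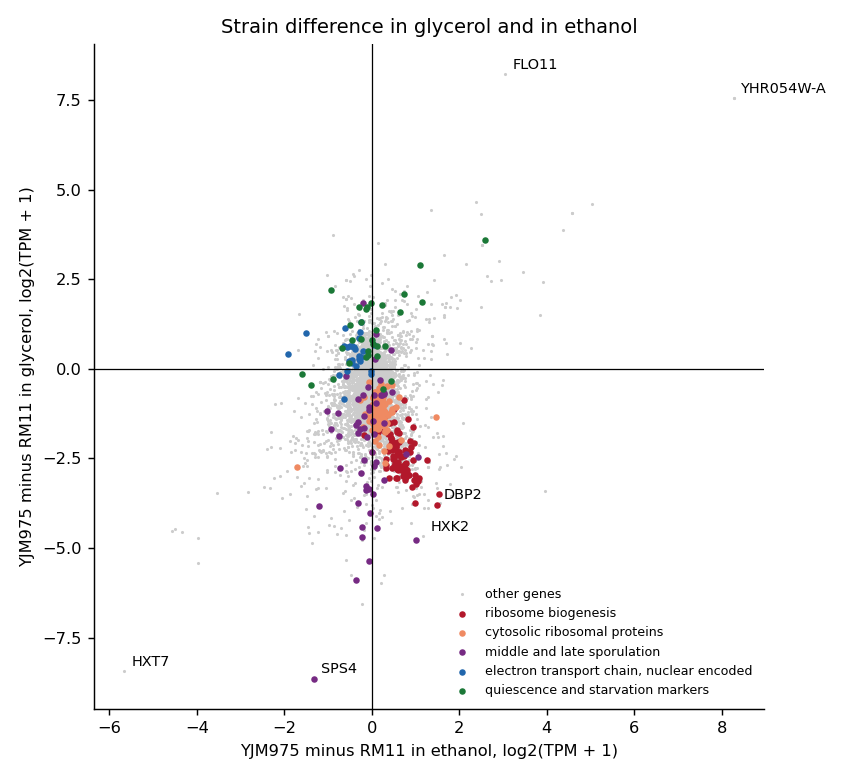
Log2 difference of TPM + 1, YJM975 minus RM11, in ethanol (x axis) and in glycerol (y axis) for 6292 genes; colours mark gene lists. Ribosome biogenesis genes lie to the lower right, lower in YJM975 in glycerol and higher in ethanol, and electron transport genes to the upper left.

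Some genes were near 0 in 1 strain. In glycerol, 11 genes were below 1 TPM in the 3 RM11 libraries and at 10 TPM or more in the 3 YJM975 libraries, and all 11 were also below 1 TPM in the other 6 RM11 libraries, 9 in all. The reverse held for 38 genes, of which 18 were below 1 TPM in all 9 YJM975 libraries. The search for near-identical copies, which covered only genes of the RefSeq annotation, marked 3 of the 11 and 2 of the 38. Others of the 11 also shared their values. The lowest and highest levels were the same for YHR054W-A and YHR052W-A, for YJL225W-A and YIL177W-A, and for YHR218W-A and YBL112C. The 11 are therefore not 11 separate observations. YIR042C, an uncharacterised gene, reached at most 0.117 TPM in any YJM975 library and at least 11.998 TPM in each RM11 library of the 3 media, and was named after its values were seen. URA3, the pyrimidine synthesis gene used as a selectable marker, was not tested, at 0.0395, 0.0809 and 0.123 TPM in RM11 and listed at 0 in YJM975. HO, the mating-type switching endonuclease gene, was listed at 0 in RM11 and stood at 0.122, 0.0725 and 0.0939 TPM in YJM975.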

How the data were processed

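Polyadenylated RNA of 18 libraries was quantified by the authors, and TPM per transcript was deposited; the submitters' processing notes name kallisto, with no version, and the transcript set is not given in the sources used here. TPM holds no depth, so no counting error can be stated. The members and gene lists were chosen with earlier results of these data known. From the deposited values, log2(TPM + 1) of 6292 transcripts (mean of 1 TPM or more over 6 glycerol libraries) was fitted with limma 3.58.1 (R 4.3.3), 6 group means over the 18 libraries (12 residual degrees of freedom) and trended empirical Bayes, and Benjamini-Hochberg adjustment over the 6292. Alternatives covered pseudocounts, filters, scalings, the libraries in the fit, the replicate block and leaving out each library. On simulated data 97.0% of 1.5-fold and 98.5% of 2-fold changes were recovered, and 12 of 6092 unchanged genes were called. The simulation left most genes unchanged and did not rescale libraries to a fixed total. It therefore cannot speak to how the scaling divides genes into higher and lower. The cultures were biological triplicates, per the labels. The limma p-values set each difference against the spread between replicate cultures within groups, pooled over the 18 libraries and moderated across genes. Names came from RefSeq R64, in which 5929 of 6612 identifiers matched and 218 genes were near-identical to another (BLAST 2.17.0, 95% identity over 50% of length); overlapping genes were marked. Named genes were the 12 largest differences each way among called genes at 10 TPM or more whose groups did not overlap. Lack of overlap in these genes is therefore part of the rule and not a finding. Up to 4 called genes per list, members of lists of up to 16 genes and the 5 highest genes were also named. So were the 6 largest differences between media each way, genes near 0 in 1 strain and fixed reference genes. BIO2, BIO3, CDA2, CRR1, FMP45, IME4, NDE1, OSW1, PRB1, REC8, RME1, SDH1, SPO75, TDH1, YIR042C, ZAP1 and ZRT2 fall outside that rule and were chosen after their values were seen. The 58 lists held 57 with tested members; the 8 mitochondrially encoded genes were below the limit. Python 3.11.15 with pandas 2.3.3 and scipy 1.17.1 was also used.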

Additional observations from a re-analysis of the deposited data

Results flagged for a closer look

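The strain difference itself differed between media for most genes. By the interaction term of the limma fit, adjusted over the 6292 genes, the strain difference in glycerol differed from that in ethanol for 5100 genes and from that in medium labelled glucose for 4933 genes.

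The largest positive differences (glycerol minus ethanol, log2 of TPM + 1) were 5.17 for FLO11, 4.62 for YPL222C-A, 3.64 for HSP30, 3.36 for VHT1, 3.18 for FRE7, a reductase gene of copper starvation, and 3.15 for YER067C-A. YPL222C-A rests on unequal replicates, at 0, 24.97 and 1.71 TPM in RM11 and 48.5, 53.7 and 58.3 TPM in YJM975, with a strain difference of 3.72 ± 0.87 in glycerol. FRE7 was at 8.18, 8.18 and 7.45 TPM in RM11 and 23.4, 26.6 and 23.9 TPM in YJM975 and YER067C-A at 57.3, 60.6 and 52.2 TPM in RM11 and 277, 269.9 and 309.6 TPM in YJM975, and YJM975 was higher in every library of both.

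The largest negative differences were -7.35 for ADF1, -7.31 for SPS4, -6.32 for YDR042C, -6.17 for GAT4, -6.03 for RRT5 and -5.85 for HXK2. ADF1, a gene that overlaps FYV5 so that reads of the pair cannot be told apart where counting ignores strand, was at 11.4, 4.90 and 14.9 TPM in RM11 and at or near 0 in the 3 YJM975 libraries in glycerol, and in ethanol its mean level was near 0 in RM11 and 15.9 TPM in YJM975. Values so near 0 make its log2 difference depend on the pseudocount, with -3.40 in glycerol at a pseudocount of 1, -6.58 at 0.1 and -1.57 at 5. The mean levels of HXK2 in ethanol were 1.79 TPM in RM11 and 5.26 TPM in YJM975, the reverse of its order in glycerol.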

How the results depend on the processing

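The number of genes called hardly depended on the settings tried, but its division into higher and lower did. Of the 6292 genes 5444 were called, against 5423 and 5448 with pseudocounts of 0.1 and 5, 5492 with no filter, 4446 at a filter of 10 TPM (fewer genes tested), 5430 with the 6 glycerol libraries alone and 5250 to 5289 under the 3 rescalings. Higher and lower genes numbered 1017 and 4427, against 2888 and 2381 with median centring, 2918 and 2371 with quantile normalization and 1771 and 3479 after rescaling without the 50 most abundant genes. By 2-fold or more these were 193 and 1990, against 761 and 792 with median centring, 654 and 817 with quantile normalization and, for higher genes, 350 after rescaling. Leaving out 1 library gave 5315 to 5376 called, 946 to 1001 higher, 4332 to 4430 lower, 184 to 195 and 1947 to 2025 by 2-fold, 5016 to 5085 differing from ethanol and 4802 to 4891 from glucose, and a ribosomal protein share lower by -6.76 to -6.49 percentage points (-6.59 with all libraries).

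Among the 172 genes named in the text and tested, signs reversed under the 3 rescalings and under no other setting tried. Over all genes, the counts above show that many more signs depend on the scaling. With median centring GUT2 had 0.32, ICL1 0.54, MFA1 0.38, SDH1 0.50 and STE3 0.16. With quantile normalization DDR2 had -0.31, GRE1 -0.25, ICL1 0.14, NDT80 0.22, SDH1 0.041 and STE3 0.60. After rescaling ICL1 had 0.21, MFA1 0.044 and SDH1 0.17. The cause was not tested.

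The replicate number does not pair the cultures: same-numbered libraries had deviations from their group means correlated at -0.076, -0.030 and -0.049, and with the replicate block 5431 genes were called. The interaction terms have no value with the glycerol libraries alone.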

Other observations

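Lists of degradation and secretion genes did not share a direction, beside 86.5% of all genes called, 16.2% higher and 70.4% lower. Autophagy genes, which act in the turnover of cell contents in the vacuole, were divided, with 12 higher and 11 lower of 35 in YJM975 and a median log2 difference of -0.02, whereas median centring gave 32 higher and 1 lower. ATG19, a cargo receptor of the cytoplasm-to-vacuole pathway, was at 60.3, 59.9 and 61.2 TPM in RM11 and 157, 169 and 154 TPM in YJM975, and ATG41 at 56.0, 54.5 and 57.0 TPM in RM11 and 156, 138 and 137 TPM in YJM975. The 26S proteasome, which degrades ubiquitin-tagged proteins, had 0 genes higher and 35 lower of 36, but 23 higher and 1 lower with median centring, so its direction rests on the scaling. Its median log2 difference was -0.52, close to that of the median gene, and the regulatory element PACE, GGTGGCAAA, occurred in 77.8% of its promoters and 1.23% of all. Genes of folding and secretion in the endoplasmic reticulum were lower for 38 and higher for 1 of 43 (24 and 11 with median centring; 2 higher without RM11 library 1), with a median of -0.87. ERO1, the thiol oxidase of the endoplasmic reticulum, was at 36.4, 49.1 and 41.3 TPM in RM11 and 3.61, 4.06 and 3.60 TPM in YJM975, and SEC12, which starts the budding of transport vesicles there, at 33.3, 36.5 and 34.2 TPM in RM11 and 3.87, 4.94 and 4.44 TPM in YJM975. Every RM11 library of these last genes was above every YJM975 library.

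Nutrient permeases and exporters gave large single-gene differences within lists that were mostly lower, beside 70.4% of all genes lower and 16.2% higher. Nitrogen catabolite genes and permeases had 8 higher and 24 lower of 36 (14 and 13 with median centring). GNP1, a glutamine permease, was at 25.6, 27.2 and 28.0 TPM in RM11 and 0.558, 0.670 and 0.550 TPM in YJM975, and PTR2, the peptide transporter, at 54.7, 55.2 and 52.9 TPM in RM11 and 8.52, 10.5 and 8.71 TPM in YJM975. AQR1, an exporter of weak acids and amino acids, was at 65.2, 84.7 and 69.7 TPM in RM11 and 6.36, 7.38 and 5.63 TPM in YJM975, in a drug efflux list with 7 higher and 24 lower of 33 (19 and 8 with median centring). PHO90, a low-affinity phosphate transporter, was at 35.2, 42.1 and 42.1 TPM in RM11 and 5.51, 6.40 and 5.39 TPM in YJM975. In the peroxisome list 3 genes were higher and 31 lower of 42 (20 and 16 with median centring), among them FOX2, of beta-oxidation, at -1.75 ± 0.09. Of 49 mitochondrial import and carrier genes 9 were higher and 32 lower (34 and 13 with median centring), and OAC1, the oxaloacetate carrier, was at 29.1, 34.2 and 31.7 TPM in RM11 and 5.40, 6.53 and 6.04 TPM in YJM975. These carriers and permeases were lower in each YJM975 library.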
